A study of Mus musculus with 7 samples.

Results

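EED is a core subunit of Polycomb repressive complex 2 (PRC2), and the regions described here are the EED peaks of postnatal day 17 (P17) mouse spermatocytes that lay outside the called peaks of both H3K27me3 and H3K4me3. They were chosen by position: a peak of the P17 EED list was taken when it shared no base with any P17 H3K27me3 or P17 H3K4me3 peak. This held for 404 of 2701 EED peaks (15.0%). Because called peaks of these 3 lists chose the members, their position relative to the P17 marks is given as a description, with no test. Of the 404, 12 lay in a single stretch of chromosome 6 at the HoxA cluster and 392 lay elsewhere, and the groups are described apart.

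Spermatocytes were isolated from testes of wild-type CD1 mice by enzymatic digestion and Percoll fractionation, fixed with formaldehyde, and profiled by chromatin immunoprecipitation and sequencing (ChIP-seq). The groups used were P17 EED (1 replicate), P17 H3K27me3 and P17 H3K4me3 (each a pool of 2 replicates), and P12 H3K27me3 and P12 H3K4me3 (1 replicate each, postnatal day 12). The label for the antibody of P17 H3K4me3 reads H3K27me3; the group follows the title instead, and peaks of these samples are called by their titles. No expression was measured, so the purity of the cells could not be checked here, and input libraries were not analysed here. Every list has 1 file, so nothing could be compared across replicates, and neighbouring peaks of 1 library are not replicates of each other.

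PRC2 places methyl groups on lysine 27 of histone H3 through a catalytic subunit such as EZH2. EED binds trimethylated H3K27 and stimulates EZH2 there, which lets the mark spread, and it therefore usually sits within H3K27me3 domains. In mammals PRC2 gathers at CpG-rich promoters of developmental regulators such as the Hox genes, where H3K4me3, a mark of promoters, is often also found. In male germ cells PRC2 is known for keeping genes of somatic programmes silent.

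The 392 EED peaks outside both marks and outside the HoxA stretch were narrow, solitary and free of P12 marks. They ran from 78 to 412 bp, with a median of 173 bp and quartiles of 153 and 190 bp. The 2297 EED peaks within a P17 mark ran from 103 to 10290 bp, with a median of 343 bp and quartiles of 233 and 610 bp. The middle ranges of the groups did not overlap. Of the 392, 313 (79.8%, Wilson 95% interval 75.6% to 83.5%) were under 200 bp, against 341 of 2297 (14.8%, 13.5% to 16.4%) of the EED peaks within a mark. The 404 members together covered 74757 bp, 5.04% of the bases in EED peaks. A narrow peak has fewer bases with which to touch a mark, so width is not independent of the way the members were chosen. Intervals of shares cover counting error only and treat peaks as independent.

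**Figure D1:**
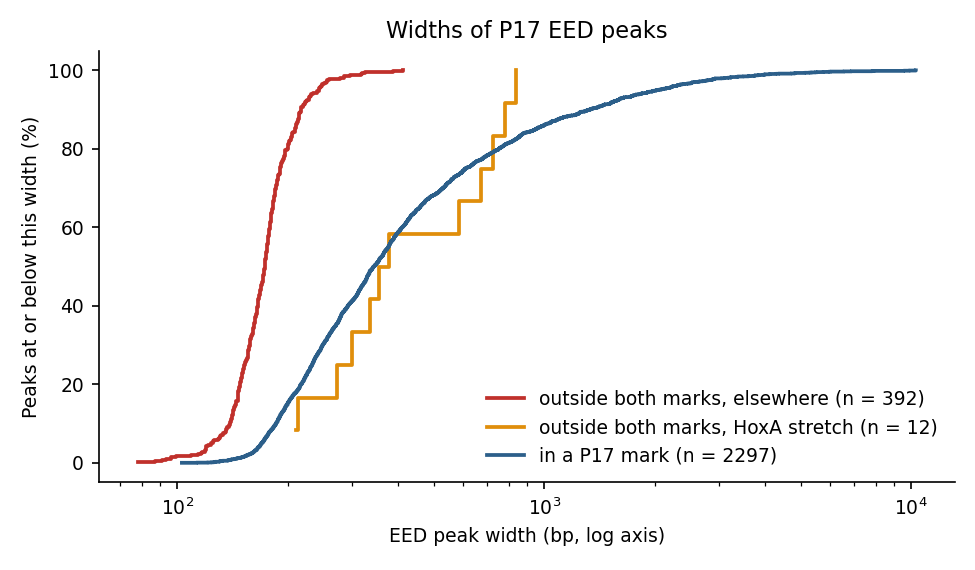
Cumulative share of P17 EED peaks (vertical axis, %) by peak width (horizontal axis, bp, log scale) for peaks outside both marks elsewhere (n = 392), outside both marks in the HoxA stretch (n = 12) and within a P17 mark (n = 2297). The 392 rise steeply around their median of 173 bp and end at 412 bp, while the 12 HoxA peaks follow the peaks within a mark.

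The share of EED peaks that lay outside both marks depended on width throughout the list. Of 117 EED peaks under 150 bp, 85 (72.6%, Wilson 95% interval 63.9% to 79.9%) were outside both marks. The share was 42.5% (228 of 537) from 150 to under 200 bp and 16.0% (67 of 418) from 200 to under 250 bp. It was 0.630% (6 of 953) among peaks of 400 bp or wider, and 5 of those 6 were in the HoxA stretch. Among the 392, width hardly moved with distance from a mark: the median was 179 bp for the 23 within 1 kb of a P17 mark, 173.5 bp for the 132 at over 1 to 10 kb, 170 bp for the 197 at over 10 to 100 kb, and 180 bp for the 40 farther away.

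The 5 widest of the 392 (mm9 coordinates, counted from 1) reached 316 to 412 bp. The widest, chr13:120280638-120281049 at 412 bp, lay 304 bp from a P17 H3K4me3 peak and 81.6 kb from a P17 H3K27me3 peak. The next, chr1:85283032-85283419 at 388 bp, lay 195 kb from H3K4me3 and 350.0 kb from H3K27me3. The peak chr4:153751910-153752233 at 324 bp lay 258 bp from H3K27me3 and 41.9 kb from H3K4me3. The remaining pair were chr2:77814579-77814896 (318 bp) and chr6:144407079-144407394 (316 bp). The nearest mark of these 5 thus lay from 258 bp to 195 kb away. No mm9 gene annotation or genome was used here, so these regions are given without a gene, and their bases are not printed.

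Most of the 392 lay over 10 kb from either mark. The distance between peak edges to the nearest P17 H3K4me3 peak had a median of 18.5 kb (quartiles 5.34 and 49.1 kb), and that to the nearest P17 H3K27me3 peak had a median of 56.4 kb (quartiles 19.0 and 172 kb). For 294 of 392 (75%) the H3K4me3 peak was the nearer; the H3K4me3 list is also the longer, with 51603 peaks against 26387 for H3K27me3. Within 1 kb there was an H3K4me3 peak for 18 of the 392 (4.59%) and an H3K27me3 peak for 7 (1.79%). Within 10 kb the counts were 140 (35.7%) and 66 (16.8%), and within 100 kb 350 (89.3%) and 250 (63.8%). In 91 of 392 (23.2%, 19.3% to 27.6%) neither mark had a peak within 50 kb on either side, which held for 0 of the 2297 EED peaks within a mark, since a mark there is part of their definition.

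Few of the 392 lay directly beside a mark. The members nearest to a P17 mark, just outside the rule, were chr18:48072300-48072544 at 28 bp from H3K4me3, chr12:4559876-4560036 at 125 bp from H3K4me3, chr14:21618735-21618901 at 138 bp from H3K4me3, chr13:21357313-21357491 at 148 bp from H3K27me3 and chr8:82341001-82341209 at 155 bp from H3K4me3. Just inside it, the EED peak sharing the fewest bases with a mark was chr10:20266447-20266652 with 15 bases in H3K27me3. Second was chr6:52159521-52159823, which lies in the HoxA stretch, with 94 bases in H3K4me3. Of the next 3, peaks of 103 and 113 bp lay wholly within a mark, and 1 of 164 bp shared 104 bases. At the far end, chrX:120763450-120763660 lay 545 kb from H3K4me3 and 3360 kb from H3K27me3. The other 4 of the 5 most distant members, on chromosomes 1, 9, 3 and 4, lay 264 to 293 kb from the nearest mark.

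**Figure D2:**
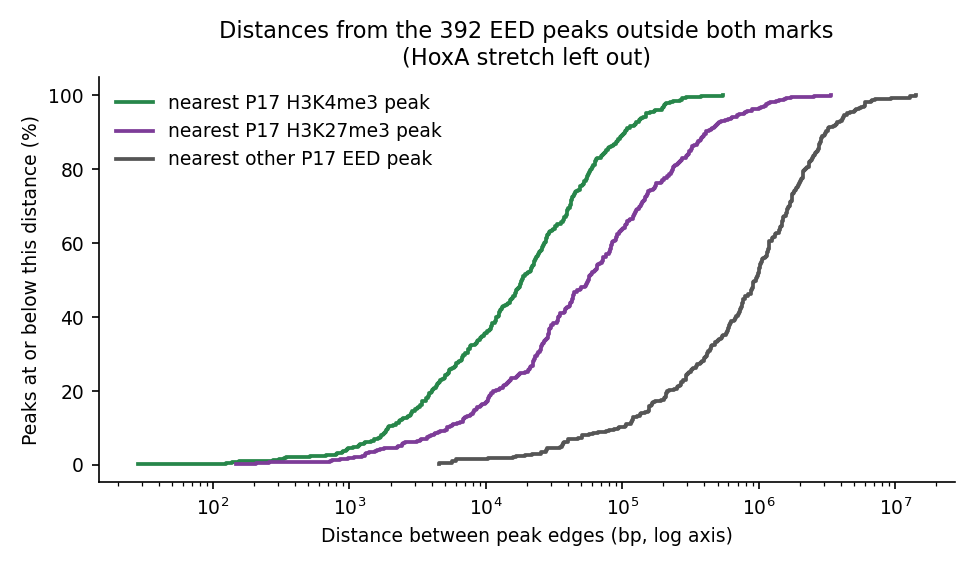
Cumulative share of the 392 EED peaks outside both marks and outside the HoxA stretch (vertical axis, %) by distance between peak edges (horizontal axis, bp, log scale) to the nearest P17 H3K4me3 peak, P17 H3K27me3 peak and other P17 EED peak. The 3 curves rise in that order, with medians of 18.5, 56.4 and 954 kb.

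Within the mark-free gaps that held them, the 392 were spread from edge to midpoint. The gap between the flanking P17 mark peaks had a median of 77.9 kb (quartiles 32 and 189 kb). On a scale where 0 is the edge of a mark and 1 the middle of the gap, the 391 members with a mark peak on both sides had quartiles of 0.25, 0.51 and 0.75. Counts in 10 equal classes of that scale ran from 28 to 52, with 35 in the class at the edge and 39 in the class at the midpoint. The members thus neither gathered at the marks nor at the middle of the gaps.

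The 392 also stood apart from the rest of the EED list. No other EED peak lay within 1 kb of any of the 392, which allows a share of up to 0.765%, whereas 1843 of the 2297 EED peaks within a mark (80.2%, 78.6% to 81.8%) had one. Within 10 kb another EED peak lay near 6 of the 392 (1.53%, 0.703% to 3.30%), against 2034 of 2297 (88.6%). All 6 had another member as their nearest neighbour, in 3 pairs, at chr5:15052255-15058676, chr1:85283032-85289202 and chr17:24444475-24449363. The median distance to the next EED peak was 954 kb for the 392 and 153 bp for the EED peaks within a mark. Thus EED peaks within marks came in runs, up to 19 when joined within 1 kb, and the members outside marks came singly.

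No P12 mark lay over the 392. Overlap with P12 H3K27me3 was found for 0 of 392 members, which allows a share of up to 0.765%, against 2114 of 2297 (92.0%, 90.9% to 93.1%) EED peaks within a P17 mark. With P12 H3K4me3 it was likewise 0 of 392, against 1897 of 2297 (82.6%, 81.0% to 84.1%). The nearest P12 H3K4me3 peak lay at a median of 23.4 kb and the nearest P12 H3K27me3 peak at a median of 159 kb from the 392. The P12 lists were not used to choose the members, but they add little ground of their own: 1.99% of the bases in P12 H3K27me3 peaks (0.429 of 21.6 Mb) and 2.87% of those in P12 H3K4me3 peaks (2.14 of 74.6 Mb) lay outside both P17 marks. No test was made of the difference.

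EED peaks as narrow or as solitary as the members were nevertheless found within marks, and most of those overlapped a P12 mark. Of the EED peaks within a P17 mark, 273 were no wider than the upper quartile of the 392, and 252 of these (92.3%, 88.5% to 94.9%) overlapped a P12 mark. A further cut of those within a P17 mark, the 263 with no EED peak within 10 kb, had a median width of 220 bp, and 237 (90.1%, 85.9% to 93.2%) overlapped a P12 mark. For the 80 that were both as narrow and as solitary, the count was 64 (Wilson 95% interval 70.0% to 87.3%). By mark, 29 of the 80 overlapped P12 H3K27me3 (26.6% to 47.2%) and 59 overlapped P12 H3K4me3 (63.2% to 82.1%), so the P12 H3K27me3 share was below the 92.0% of all 2297. These 80 were like the members in width and isolation and unlike them in P12 marks, and they differ from them by the rule itself, since they lie in P17 marks. Little P12 ground lies outside the P17 marks, so the contrast in P12 marks cannot be told apart from the rule.

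EED peaks in H3K4me3 but not in H3K27me3 at P17 were also mostly solitary outside the HoxA stretch. There were 74 of these, 35 in the HoxA stretch and 39 elsewhere. The 39 had a median width of 180 bp (quartiles 166 and 229.5 bp) and a median distance of 627 kb to the next EED peak, and 0 of the 39 had one within 10 kb, which allows a share of up to 7.69%. Of the 39, 30 overlapped P12 H3K4me3 and 1 overlapped P12 H3K27me3. By contrast the 253 EED peaks in H3K27me3 without H3K4me3 had a median width of 283 bp and a median of 181 bp to the next EED peak. The share under 200 bp was 79.8% among the 392 and 56.4% among the 39 (22 peaks, 41.0% to 70.7%). No test of the difference was made.

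Along the genome the number of members per chromosome rose with chromosome span. Over the 19 autosomes, the number of members correlated with the span from the first to the last called peak at Pearson r = 0.83 and Spearman rho = 0.74, and the number of EED peaks within a mark at r = 0.46 and rho = 0.40. With the number of P17 H3K27me3 peaks per autosome, r was 0.62 and rho 0.69 for members, and r was 0.54 and rho 0.43 for the others. By rank, the member count thus went with span (0.74) and with H3K27me3 peak number (0.69) about equally. These are descriptions over 19 chromosomes that share 1 library, and their difference was not tested. Members ran from 6.99 per 100 Mb on chromosome 15 to 21.2 on chromosome 12 (median 17.1), and EED peaks within a mark from 41.5 on chromosome 7 to 168 on chromosome 11 (median 95.6). The X chromosome held 2 of the 392 members, or 1.24 per 100 Mb, and 3 of the 2297 others, or 1.86 per 100 Mb. The P17 H3K27me3 list was sparse there too, with 72.4 peaks per 100 Mb on the X against at least 703 on every autosome.

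**Figure D3:**
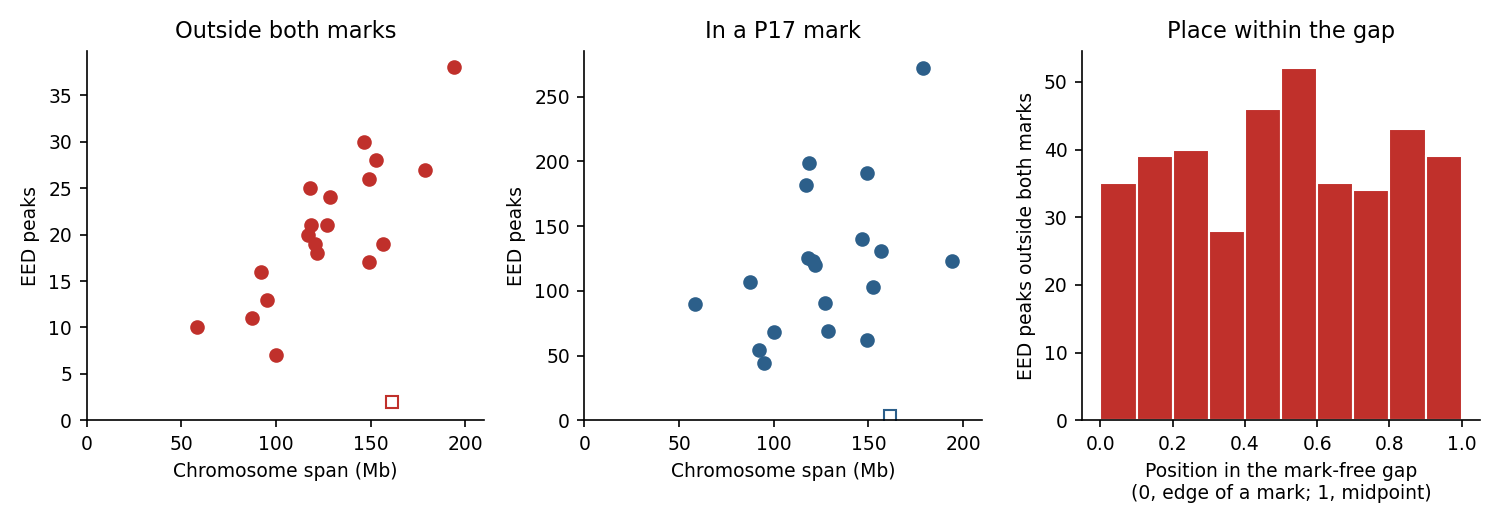
Number of EED peaks outside both marks (left, HoxA stretch left out) and within a P17 mark (middle) against chromosome span (Mb), 1 point per chromosome with the X as an open square, and histogram of the place of 391 members within their mark-free gap (right; 0, edge of a mark; 1, midpoint). Member counts rise with span (r = 0.83 over 19 autosomes), the X lies far below, and the histogram runs from 28 to 52 peaks per class.

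Peak numbering gave a further measure of how the list was made. The deposited EED list holds 2701 peaks numbered up to 3036 in genome order, so 335 numbers (11%) are missing. A missing number stood directly beside 151 of the 392 (38.5%, 33.8% to 43.4%) and beside 372 of the 2297 EED peaks within a mark (16.2%, 14.7% to 17.8%). It also stood beside 109 of the 263 solitary EED peaks within a mark (41.4%, 35.7% to 47.5%). Whether the share goes with being solitary was not tested. The list carries no height, fold or p-value, and background signal in the input was not analysed here. Whether the 392 are sites of EED or calls on background was not tested.

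The 12 members in the HoxA stretch were wider than most of the 392, lay close to other EED peaks and H3K4me3, and carried P12 H3K27me3; like the 392 they had no P12 H3K4me3. The stretch, chr6:52097777-52230508 (132732 bp, mm9), is the interval around the widest P12 H3K27me3 peak that holds no P17 H3K27me3 peak, and it is known to hold the HoxA cluster, genes of homeodomain factors that set position along the body axis. The 12 were 211 to 836 bp wide with a median of 366 bp, and 9 of them were 300 bp or wider. Of the 12, 11 had another EED peak within 1 kb and all 12 overlapped P12 H3K27me3, 6 of them the widest P12 peak, chr6:52149265-52192271 (43007 bp). Their nearest P17 H3K4me3 peak lay at a median of 339.5 bp (17 to 4388 bp). Of the 12, 0 overlapped P12 H3K4me3, which for so few peaks allows a share of up to 25%. Over the genome, 2.87% of the bases in P12 H3K4me3 peaks lay outside both P17 marks. The rule thus left the 12 little of that list to overlap.

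These 12 lay among a dense run of EED peaks, most of them in H3K4me3. The stretch held 47 EED peaks covering 40.4% of it, of which 35 overlapped P17 H3K4me3. All 47 overlapped P12 H3K27me3. Joining EED peaks within 1 kb left 12 blocks, the widest, chr6:52151891-52185497, holding 22 EED peaks over 33607 bp, 5 of them members. After joining, 2 blocks still touched no P17 H3K4me3 peak: chr6:52212782-52213136 (355 bp) and chr6:52215667-52217114 (1448 bp). The wider of these blocks is made of the widest member, chr6:52216279-52217114 (836 bp), and chr6:52215667-52216252 (586 bp), and they lay 4388 and 3776 bp from H3K4me3. Other wide members were chr6:52177475-52178255 (781 bp), chr6:52172773-52173496 (724 bp) and chr6:52111639-52112312 (674 bp).

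Over the same stretch the other lists were dense. P17 H3K4me3 had 23 peaks covering 46.9% of it, P12 H3K27me3 had 26 peaks covering 85.8%, and P12 H3K4me3 had 25 peaks covering 37.2%. The P17 H3K27me3 peaks on either side, 1799 and 2682 bp wide, carry consecutive numbers. That whole list of 26387 peaks is numbered up to 26387 with no number missing, so the numbering says nothing particular about the stretch. The stretch was chosen for its wide P12 H3K27me3 peak, so its P12 H3K27me3 bases, and in part the overlap of its EED peaks with that list, follow from the choice. As a description, it held 113885 bp of P12 H3K27me3, and the next gap by that measure, chr4:134715845-134734443, held 10026 bp and 0 EED peaks. EED density was 3.54 peaks per 10 kb in the stretch, against 3.03, 5.21 and 4.96 in the 3 widest P17 H3K27me3 peaks of the genome, taken here as Hox domains. They were chr15:102738509-102834200, chr11:96129003-96219277 and chr2:74482891-74555463. Median EED width was 744 bp in the stretch and 461, 404 and 582 bp in those 3 peaks. P17 H3K4me3 overlapped 21 of 29, 42 of 47 and 27 of 36 EED peaks there, against 35 of 47 in the stretch. EED peaks outside H3K4me3 were thus found in each. Those in the stretch are members because no P17 H3K27me3 peak is listed there.

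**Figure D4:**
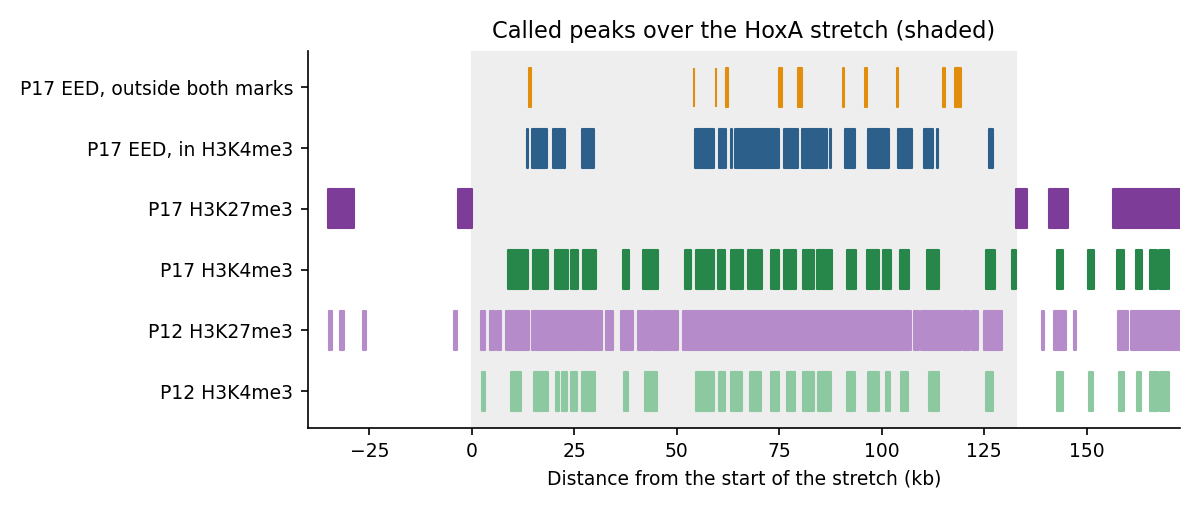
Called peaks in the HoxA stretch (shaded) and 40 kb on either side, by distance from its start (kb), with 1 row per list and the P17 EED peaks split into those outside both marks and those in H3K4me3. The P17 H3K27me3 row is empty over the shaded 132732 bp, where the P12 H3K27me3 row is almost filled and the 12 members sit between H3K4me3 peaks.

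The letters of 2 Hoxa promoters, the extremes in CG count, show how widely promoters of that cluster vary. RefSeq (GRCm38.p6) gives windows of 250 bases before to 50 after a start for 9 of the 10 Hoxa genes reported, 10 windows in all. Those with the most and the fewest CG dinucleotides are printed 5′ to 3′ on the gene's strand with CG in capitals; both lie on the minus strand, at chr6:52260831-52261130 for Hoxa13 and chr6:52227321-52227620 for Hoxa9 (GRCm38.p6).
Hoxa13: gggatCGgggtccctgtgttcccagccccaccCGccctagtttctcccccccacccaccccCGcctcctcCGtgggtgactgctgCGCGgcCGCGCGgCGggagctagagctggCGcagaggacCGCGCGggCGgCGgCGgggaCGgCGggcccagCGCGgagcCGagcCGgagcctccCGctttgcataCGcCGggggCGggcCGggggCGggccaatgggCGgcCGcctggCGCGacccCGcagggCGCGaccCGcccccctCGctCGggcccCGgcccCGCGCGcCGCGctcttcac
Hoxa9: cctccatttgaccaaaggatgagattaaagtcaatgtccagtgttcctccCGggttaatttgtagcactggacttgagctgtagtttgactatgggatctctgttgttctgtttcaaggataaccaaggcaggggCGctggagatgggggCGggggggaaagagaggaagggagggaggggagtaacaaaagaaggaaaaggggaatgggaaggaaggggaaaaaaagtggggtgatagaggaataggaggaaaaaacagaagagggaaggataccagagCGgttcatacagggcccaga
The Hoxa13 window holds 45 CG, a number that 1.93% of the 32851 promoter windows reach, and the Hoxa9 window holds 4, a number that 68.6% of windows reach. The median was 17.5 over the 10 Hoxa windows and 7 over all windows. CG reads the same on both strands, and no other motif was searched. These coordinates are of another build than the peaks, so no EED peak can be placed on them here.

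The H3K27me3 read counts over gene bodies gave a second measure of that mark in the stretch, made without peak calling. The counts summed to 26664736 reads at P17 and 13462873 at P12, and levels are given as CPM, the count divided by that total and scaled to counts per 1e+06. CPM was not divided by gene length and input was not subtracted. Levels of different genes therefore also depend on how long each gene body is. Of the 10 Hoxa genes reported, 9 had a higher level at P17 and 1 a lower level. A higher level at P17 was found for 8314 of all 21808 genes with at least 20 reads. It was also found for 10 of 10 Hoxb genes, 9 of 9 Hoxc genes and 8 of 9 Hoxd genes. The 95% interval of the log2 ratio P17/P12, which covers counting error only, lay above 0 for 9 genes and below 0 for Hoxa4. The median log2 ratio was 0.44, against -0.08 over all 21808 genes with at least 20 reads. None of the 10 was over 2-fold higher or lower (0 of 10 each); of all genes tested 2.76% were over 2-fold higher and 0.459% over 2-fold lower. With 1 library per stage these values compare the libraries and have no replicate check.

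Gene by gene the levels at the 2 stages lay within 2-fold of each other, though the counting interval of every gene excluded 0. Hoxa5, a factor of lung and cervicothoracic patterning, had 62.7 CPM at P17 (1671 reads), against 40.5 CPM at P12 (545 reads), the largest log2 ratio of the 10 at 0.63 (0.49 to 0.77). Hoxa9, a factor of trunk patterning and blood progenitors, had 79.8 CPM at P17 and 56.3 CPM at P12 (0.50, 0.38 to 0.62). Hoxa13, a factor of digits and the genital tract, had 50.1 CPM at P17 and 36.7 CPM at P12 (0.45, 0.30 to 0.60). Hoxa10 had 169 and 125 CPM at P17 and P12 (0.43), and Hoxa7 86.0 and 60.4 CPM (0.51). Hoxa2, a factor of the hindbrain, had 46.7 and 32.8 CPM (0.51), Hoxa6 34.8 and 27 CPM (0.37), and Hoxa11, a factor of limb and uterus, 68.7 and 58.1 CPM (0.24).

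The exception among the 10 was Hoxa4. It had 10.8 CPM at P17 (287 reads), against 15.4 CPM at P12 (208 reads), a log2 ratio of -0.52 (-0.78 to -0.26). Hoxa3 had 444 CPM at P17 and 366 CPM at P12 (0.28, 0.23 to 0.33). In the RefSeq gene table (GRCm38.p6) the Hoxa3 gene spans Hoxa4, Hoxa5 and Hoxa6. Whether a read there was counted for 1 gene or for several is uncertain, so the counts of these 4 genes may share reads. The flanking genes, Skap2 on the Hoxa2 side and Evx1 and then Hibadh on the Hoxa13 side in that table, had 116, 121 and 54.2 CPM at P17 and 134, 102 and 57.2 CPM at P12, with log2 ratios of -0.21, 0.25 and -0.08. The genes of the other Hox clusters had median log2 ratios of 0.46 for 10 Hoxb genes, 0.39 for 9 Hoxc genes and 0.37 for 9 Hoxd genes. Median P17 levels were 65.7 CPM for Hoxa, 53.9 for Hoxb, 52.5 for Hoxc and 63.8 for Hoxd. Over all genes tested the median P17 level was 15.1 CPM, and none of these levels allows for gene length. The ratios ran from -0.52 to 0.63 for Hoxa, from 0.20 to 0.78 for Hoxb, from 0.24 to 0.87 for Hoxc and from -0.36 to 0.65 for Hoxd, and differences between the clusters were not tested. Why no P17 H3K27me3 peak was listed in the stretch was not tested. The gene-body reads cannot be placed on the 12 members, so they do not give the H3K27me3 signal at those peaks.

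**Figure D5:**
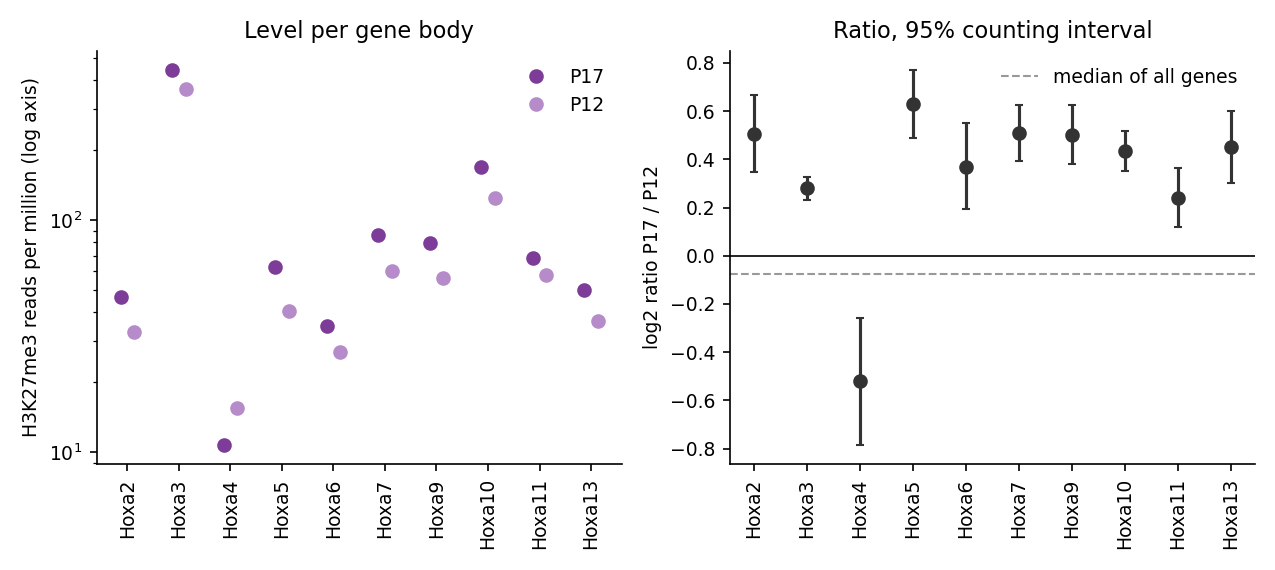
H3K27me3 CPM over the gene bodies of 10 Hoxa genes at P17 and P12 (left, log axis, 1 library each) and log2 ratio P17/P12 with 95% counting intervals (right; dashed line, median of all genes at -0.08). P17 is above P12 for 9 of 10 genes, and Hoxa4 alone lies below 0.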

How the data were processed

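ChIP-seq peaks of P17 EED, H3K27me3 and H3K4me3 and of P12 H3K27me3 and H3K4me3 were used. Alignment with Bowtie to mm9 and handling with SAMtools and HTSeq are named in the submitters' processing notes. The deposited peak files give positions only, without scores; MACS is named by the peak names and a false discovery rate level of 5 by the file names. The caller's version, its settings and any use of input were not given in the sources used here. The P17 mark lists come from pooled replicates and the others from 1 replicate, per the labels. For H3K27me3 the authors also deposited raw counts of reads over gene bodies, 1 value per symbol, with multiBamCov in the file names.

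Starts were counted from 1, and an overlap needed 1 shared base. Distances are bases between peak edges. The HoxA stretch is the P17 H3K27me3-free interval around the widest P12 H3K27me3 peak. Shares carry Wilson 95% intervals, and a count of 0 allows up to 3 counts. Log2 count ratios added 1 read on average before division, in proportion to library total, with exact Clopper-Pearson intervals, for genes with at least 20 reads in both libraries together; 146 symbols with several entries were left out. A count model was not used, since each stage has 1 library; edgeR 4.0.16 gave TMM factors for an alternative only. Python 3.11.15, scipy 1.17.1 and R 4.3.3 were used, and the functions were tested on simulated data. The regions named are the 5 widest, farthest and nearest members, the pairs of members and the wide members of the HoxA stretch; the genes named are the Hoxa genes and their flanks, and 1 item under that rule is not reported here and enters no Hoxa count or median. Members, lists and rules were chosen with earlier results of these data known. Stricter peak lists were imitated by minimum widths, as no scores were given.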

Additional observations from a re-analysis of the deposited data

How the results depend on the processing

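Of 57 recomputed values, 40 stayed within 1.5 times of a count or within the error set for the reported value, and 17 moved. Results over all 404 members rest on the HoxA stretch in a few places: without it, 0 members overlapped P12 H3K27me3 (2.97% with it) and 0 had another EED peak within 1 kb (2.72% with it). Requiring EED peaks of 300 bp or wider left 14 members, 9 of them in the HoxA stretch, with a median width of 382.5 bp. Their median distances were 37092.5 bp to H3K27me3 and 639.5 bp to H3K4me3. Of the 14, 64.3% lay over P12 H3K27me3 and 57.1% had an EED peak within 1 kb. Both shares come from the HoxA stretch alone, since 0 of the 392 members elsewhere had either trait. Requiring 1 kb between member and mark left 0.539% over P12 H3K27me3, 0.539% with an EED neighbour and 2 members in the HoxA stretch. Joining EED peaks within 1 kb left 0.508%, 0 and 2 for the same measures; an EED neighbour within 1 kb is then impossible by construction. A P12 H3K4me3 peak within 1 kb, in place of an overlap, was found for 4.95% of members. The median Hoxa log2 ratio was 0.52 with TMM factors and 0.52 with median-of-ratios factors, where the median of all genes also moved up; Hoxa4 stayed below 0 in all 5 alternatives. No paired analysis was possible because no group has separate replicate files, and no replicate could be left out. The depth of the EED library and its signal over input are not in the files used, so no precision can be given for a single peak.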

Other observations

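The following stretches were picked after their values were seen. After the HoxA stretch, the gap between P17 H3K27me3 peaks with the most EED peaks was chr1:84933010-87789489, with 5 over 2856480 bp. The HoxA stretch held 47 over 132732 bp. All 5 lay outside both marks, and the chr1 gap held no P12 H3K27me3 peak for them to overlap. This gap includes the second widest of the 392 members and 1 of the 3 pairs. The gaps chr5:14818517-15437337 (618821 bp) and chr8:19537317-23149049 (3611733 bp) each held 3 EED peaks. Those too were all outside both marks, and neither gap held a P12 H3K27me3 peak.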
